A study of Mus musculus with 9 samples.

Results

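Gja1, the gene of the main gap junction protein of fibroblasts, was followed together with 7 other cell junction genes in NIH-3T3 cells, a mouse embryonic fibroblast line, after miR-378-3p was supplied or blocked. The set held the connexin genes Gja1 and Gjc1, the pannexin gene Panx1, the cadherin genes Cdh2 and Cdh11, the catenin genes Ctnna1 and Ctnnb1, and Tjp1, which encodes a scaffold protein of the junction plaque. These 8 genes, each with 1 probe set of its own, stood among 19938 genes on the arrays, and 7 of them were among the 11963 genes tested, since Panx1 lay below the filter on level. Gja1 was chosen on its log2 values on these same arrays, in the mimic, inhibitor and control groups, and the other members were named by gene family with those results known. The changes of the 8 members are therefore given as a description, without p-values.

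There were 3 groups of 3 arrays, each array from cells transfected with 25 nM RNA and DharmaFECT 1 and lysed after 48 hours. Cells of the mimic group were given a man-made copy of miR-378-3p, those of the inhibitor group an RNA that blocks it, and those of the control group a RISC-free siRNA, which is made to stay out of the silencing complex. No mimic or inhibitor of another sequence was among the groups, so responses to miR-378-3p and responses to any active RNA cannot be told apart. Values are log2 signals after robust multi-array averaging (RMA), and a difference of 1 is a doubling. The sources do not say whether the 3 samples of a group came from separate cultures, so errors and p-values measure the scatter of these arrays, which could be technical.

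A gap junction is a cluster of channels that joins the cytoplasm of neighbouring cells. Connexins form these channels, pannexins form large pores of the single membrane that release nucleotides, and cadherins hold neighbouring cells together by binding each other across the gap. The tails of cadherins carry beta-catenin, which binds alpha-catenin and through it actin, while Tjp1 protein (zonula occludens 1) binds the tail of connexin and organises the plaque.

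The arrays fell apart mainly along the first principal component. This component took up 60.5% of the variance of the tested genes, with scores of -20.5 to -3.95 for the mimic, 9.88 to 20.9 for the inhibitor and -4.38 to -2.78 for the control. Mimic 3 and inhibitor 1 lay at its ends, and they also had the lowest and the highest 75th percentile of all probe sets, 5.55 and 5.76. The share of genes past an adjusted p of 0.05 (limma) was 3.55% for mimic against control, 14.9% for inhibitor against control and 26.8% for mimic against inhibitor. The counts of higher and lower genes were 132 and 293, 1330 and 450, and 827 and 2377 for these 3 comparisons, and 294 and 358, 1153 and 1140, and 2347 and 1806 after each array was centred on its median. The median used for this centring was not that of all probe sets on the array. All 8 fibroblast markers examined passed the level filter. With the mimic 1 of the 8 rose, Thy1 by 0.38 on the log2 scale, and with the inhibitor 1 fell, Col3a1, with a difference of -0.22 (limma, adjusted p = 0.00823 and 0.0427). In mimic against inhibitor 3 were higher (Col3a1, Thy1 and S100a4) and 1 was lower (Pdgfrb). The part of these shifts in the junction gene values was not tested. Of 17 markers of epithelium, endothelium, macrophages and muscle, 7 passed the level filter. Limma called none of these 7 in any comparison, and 1, 0 and 1 of them had an unadjusted p under 0.05. Of all 11963 genes tested, 1903, 3448 and 4607 had an unadjusted p under 0.05 in these comparisons. Cdh1 and Cdh5, the cadherin genes of epithelium and endothelium, lay below the filter.

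Gja1 (gene ID 14609) lay below the control with the mimic and above it with the inhibitor. Its log2 values were 5.68, 5.95 and 5.58 on the mimic arrays, 7.35, 7.13 and 7.20 on the inhibitor arrays and 6.16, 6.28 and 6.28 on the control arrays. No mimic array reached the lowest control, and no inhibitor array came down to the highest control. The group means were 5.73 ± 0.19 with the mimic, 7.23 ± 0.11 with the inhibitor and 6.24 ± 0.07 in the control (SD, n = 3 each). With the mimic Gja1 thus stood at 0.703 times the control level, a log2 difference of -0.51 ± 0.09 (SE, limma). With the inhibitor it stood at 1.98 times the control level, a log2 difference of 0.99 ± 0.09. Both differences use the same control arrays.

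**Figure D1:**
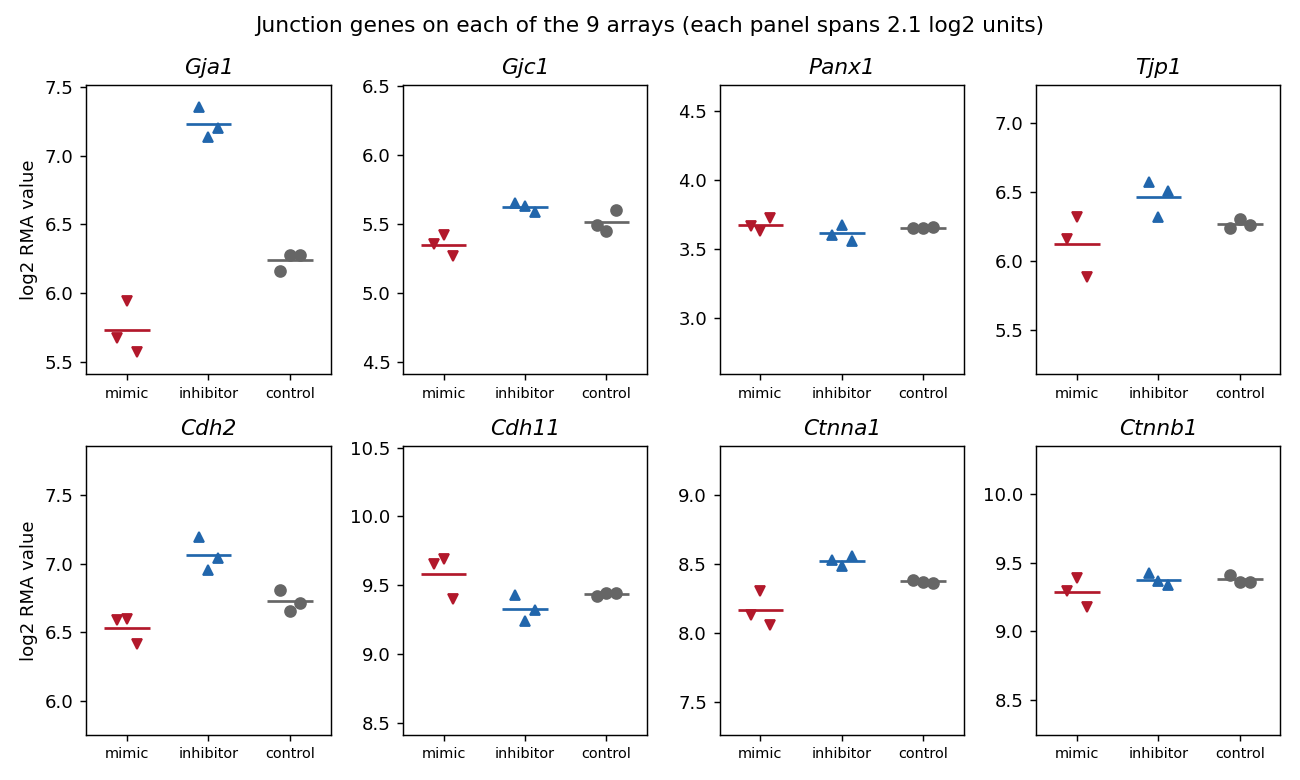
Log2 RMA value of each of the 8 junction genes on the 3 mimic, 3 inhibitor and 3 control arrays, where each symbol is 1 array, the line is the group mean and every panel spans the same range. The Gja1 groups lie apart, with means of 5.73, 7.23 and 6.24, while the Panx1, Cdh11 and Ctnnb1 groups overlap.

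Among all 11963 genes tested, the log2 difference of Gja1 ranked 54 from the bottom with the mimic and 15 from the top with the inhibitor. In mimic against inhibitor, which leaves out the control level, it was -1.50 ± 0.09 (SE) and ranked 3 from the bottom. The order of the Gja1 values within the treated groups followed the arrays that stood apart, with mimic 3 the lowest and inhibitor 1 the highest of all 9. Without mimic 3 and inhibitor 1 the differences were -0.43 with the mimic, 0.93 with the inhibitor and -1.36 between them, somewhat nearer to 0. With 1 array left out at a time, the mimic difference ran from -0.62 to -0.43 and the inhibitor difference from 0.93 to 1.03. In RNA from whole cultures, fewer cells with the transcript and less transcript per cell cannot be told apart.

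Promoter sequences of Gja1, Panx1, Tjp1 and Ctnnb1 were found in RefSeq's table (GRCm38.p6). They are shown for Gja1, the member with the widest range, and for the plaque genes Tjp1 and Ctnnb1. Each runs from 250 bases before to 50 bases after an annotated start, 5′ to 3′ on the gene's strand. Capitals mark matches to 5 motifs searched on both strands, and no match shown overlapped another. The motif of the AP-1 factors was written as TGANTCA, in which N is any base. The cyclic AMP response element was searched as TGACGTCA. For the TEAD factors the letters were GGAATG, for the factor Sp1 they were GGGCGG, and for the TATA box they were TATAAA.
Gja1, chr10:56377050-56377349, plus strand: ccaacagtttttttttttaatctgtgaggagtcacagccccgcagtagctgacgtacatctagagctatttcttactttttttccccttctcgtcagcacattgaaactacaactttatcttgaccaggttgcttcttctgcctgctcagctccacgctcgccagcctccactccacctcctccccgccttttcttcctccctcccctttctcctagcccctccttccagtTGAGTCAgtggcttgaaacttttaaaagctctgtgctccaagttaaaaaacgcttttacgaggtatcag
Tjp1, chr7:65371195-65371494, minus strand: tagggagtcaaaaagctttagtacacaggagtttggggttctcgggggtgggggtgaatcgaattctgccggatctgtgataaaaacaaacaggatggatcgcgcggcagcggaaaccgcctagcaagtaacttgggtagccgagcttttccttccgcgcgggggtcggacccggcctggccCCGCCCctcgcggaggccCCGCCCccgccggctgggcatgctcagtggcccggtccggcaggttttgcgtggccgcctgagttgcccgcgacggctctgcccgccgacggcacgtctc
Ctnnb1, the first of 2 annotated starts, chr9:120933150-120933449, plus strand: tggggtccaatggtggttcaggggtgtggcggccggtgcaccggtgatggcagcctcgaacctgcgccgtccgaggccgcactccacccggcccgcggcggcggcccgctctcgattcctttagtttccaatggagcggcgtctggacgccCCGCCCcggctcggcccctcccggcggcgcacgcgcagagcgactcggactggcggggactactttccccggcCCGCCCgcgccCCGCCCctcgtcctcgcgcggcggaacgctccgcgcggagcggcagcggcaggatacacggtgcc

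The Gja1 window held 1 match, the AP-1 letters, whose first base lies 19 bases before the start. AP-1 letters were found in 7.8% of 32851 promoter windows of the same length outside chromosome 18. The Tjp1 window held 2 Sp1 matches and the Ctnnb1 window 3, and Sp1 letters were found in 35.7% of the same 32851 windows. None of the 5 motifs was found in the Panx1 window. Base composition differed as well, with G and C making up 47.7% of the Gja1 window, 65.3% of the Tjp1 window and 75.3% of the Ctnnb1 window shown. A match of letters does not show that a factor binds there.

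Gjc1 (gene ID 14615), which encodes connexin 45, had log2 values of 5.36, 5.42 and 5.27 with the mimic, 5.65, 5.63 and 5.59 with the inhibitor and 5.49, 5.45 and 5.60 in the control. The mimic arrays lay below all control arrays, while the inhibitor arrays overlapped the control. Its log2 difference from the control was -0.17 ± 0.06 with the mimic and 0.11 ± 0.06 with the inhibitor (SE), in each case the same direction as Gja1. Panx1 (gene ID 55991), whose protein forms pores that release ATP, stayed within a narrow range. On the arrays it read 3.67, 3.63 and 3.72 with the mimic, 3.60, 3.67 and 3.56 with the inhibitor and 3.65, 3.65 and 3.66 in the control, all under the level filter of 3.86. Its groups overlapped, and it was left out of the fit.

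Of the cadherins, Cdh2 (gene ID 12558), the gene of N-cadherin, followed the direction of Gja1. It stood at log2 values of 6.59, 6.59 and 6.42 with the mimic, 7.19, 6.95 and 7.04 with the inhibitor and 6.81, 6.66 and 6.71 in the control. The 3 groups did not overlap. The log2 difference from the control was -0.19 ± 0.08 with the mimic and 0.34 ± 0.08 with the inhibitor (SE), or 0.876 and 1.26 times the control level. The inhibitor difference was 0.27 without inhibitor 1.

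Cdh11 (gene ID 12552), which encodes a cadherin typical of mesenchymal cells, did not share that pattern. Cdh11 had log2 values of 9.66, 9.69 and 9.40 with the mimic, 9.43, 9.24 and 9.32 with the inhibitor and 9.42, 9.44 and 9.44 in the control. Mimic 1 and mimic 2 lay above the other 7 arrays, and mimic 3 lay below the control. The Cdh11 groups overlapped in every comparison. The log2 difference from the control was 0.15 ± 0.08 with the mimic and -0.10 ± 0.08 with the inhibitor (SE), opposite in sign to that of Gja1 in both comparisons. Without mimic 3 the mimic difference was 0.24, and without both mimic 3 and inhibitor 1 the inhibitor difference was -0.15.

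The catenins differed from each other. Ctnna1 (gene ID 12385), whose protein ties the cadherin complex to actin, had log2 values of 8.13, 8.30 and 8.06 with the mimic, 8.53, 8.48 and 8.56 with the inhibitor and 8.38, 8.37 and 8.36 in the control. All 3 groups were apart. The differences from the control were small, -0.21 ± 0.06 with the mimic and 0.15 ± 0.06 with the inhibitor (SE). The mimic difference was -0.28 without mimic 2 and -0.19 after quantile normalization.

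Ctnnb1 (gene ID 12387) encodes beta-catenin, which serves both in the cadherin complex and as the coactivator of Wnt signalling. Its log2 values were 9.30, 9.39 and 9.17 with the mimic, 9.42, 9.37 and 9.34 with the inhibitor and 9.41, 9.36 and 9.36 in the control. The groups overlapped in every comparison. The difference from the control was -0.09 ± 0.06 with the mimic, or -0.04 without mimic 3. With the inhibitor it was -0.002 ± 0.06 (SE), and 0.01 after quantile normalization, so that no direction can be given.

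Tjp1 (gene ID 21872) had the widest spread within the mimic group. It had log2 values of 6.16, 6.32 and 5.88 with the mimic, 6.58, 6.32 and 6.51 with the inhibitor and 6.24, 6.31 and 6.26 in the control. Mimic 2 and inhibitor 2 were level, at 6.32, and mimic 3 was the lowest of the 9 arrays. The log2 difference from the control was -0.15 ± 0.10 with the mimic, which became -0.03 without mimic 3, and 0.20 ± 0.10 with the inhibitor (SE).

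**Figure D2:**
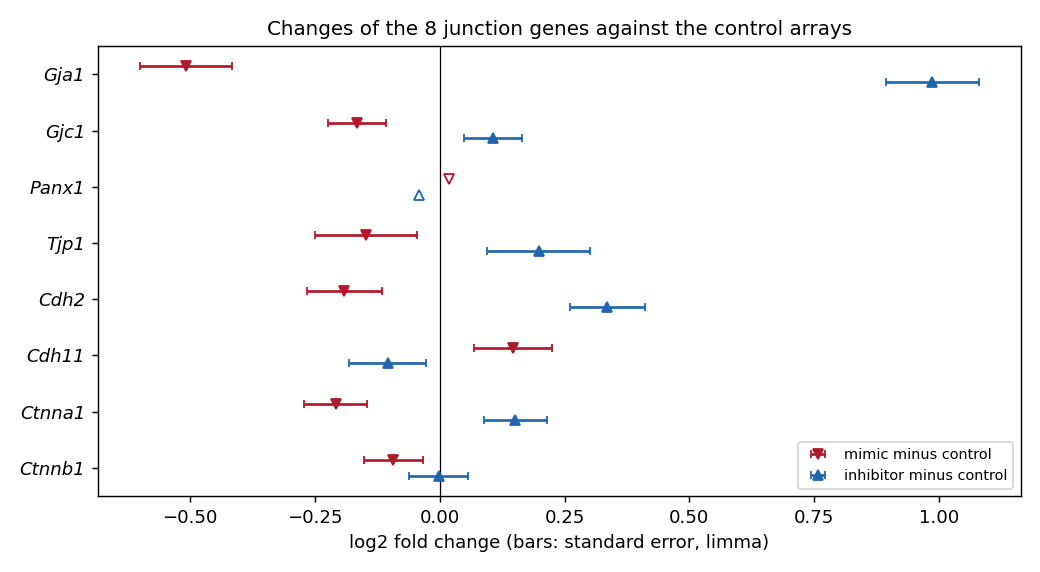
Log2 fold change of the 8 junction genes with the mimic and with the inhibitor against the control arrays (bars are standard errors from limma, and the open symbols of Panx1 are differences of means without a fit). Gja1 lies farthest from 0 in both comparisons, at -0.51 and 0.99, and Cdh11 has the opposite signs, at 0.15 and -0.10.

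Set side by side, the 7 members tested had a median log2 difference of -0.17 with the mimic and 0.15 with the inhibitor, against -0.01 and 0.01 over all genes tested. With the mimic, 6 of 7 lay below the control, against 6312 of all 11963 genes tested. Of the members, 4 (Gja1, Gjc1, Cdh2 and Ctnna1) did so without overlap, as did 12.7% of all genes tested. With the inhibitor 5 of 7 lay above the control, against 6485 of all 11963 genes tested. Of the members, 4 (Gja1, Cdh2, Ctnna1 and Tjp1) did so without overlap, as did 24.9% of all genes tested. For Tjp1 the gap was narrow, with inhibitor 2 at 6.320 and control 2 at 6.307. Since the members were picked with these values known, nothing is read from these counts.

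Mimic against inhibitor gave the widest differences. Besides that of Gja1 (-1.50), the log2 difference was -0.53 ± 0.08 for Cdh2, -0.36 ± 0.06 for Ctnna1, -0.35 ± 0.10 for Tjp1, -0.27 ± 0.06 for Gjc1 and 0.25 ± 0.08 for Cdh11 (SE). The groups did not overlap for Gja1, Gjc1, Cdh2 and Ctnna1, and all 4 were lower with the mimic, as were 25.7% of all genes tested. The Tjp1 difference was -0.17 without both mimic 3 and inhibitor 1. The Ctnnb1 difference was -0.09 ± 0.06, and its sign turned after each array was centred on its median (0.01).

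The wider cell junction machinery was taken from a list of 101 other genes, made by family with earlier results of these arrays known. Of these, 93 had a probe set of their own and 47 passed the level filter. In inhibitor against control 8 of the 47 rose and 0 fell (limma, with a threshold of 0.05 for the adjusted p), against 11.1% and 3.76% of all genes tested. Without control 1, control 3, inhibitor 1 or inhibitor 3 the count of rises was 5 each time, and with arrays centred on their median 7 rose and 2 fell. The median log2 difference of the 47 was -0.001, against 0.01 over all genes tested. In mimic against control 1 of 47 rose and 0 fell, against 1.10% and 2.45% of all genes. Of the 47, 4 had an unadjusted p under 0.05 (limma), against 1903 of all 11963 genes tested. Here the median log2 difference of the 47 was 0.03, against -0.01 over all genes. In mimic against inhibitor 1 was higher and 7 were lower, against 6.91% and 19.9% of all genes, with a median of 0.03, against -0.02 over all genes. After each array was centred on its median, 8 were higher and 7 lower.

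By role, no other connexin (4 tested), pannexin (1 tested) or desmosome gene (2 tested) was called in any of the 3 comparisons (limma, 0 with an unadjusted p under 0.05). Over all 11963 genes tested, 1903, 3448 and 4607 were under that unadjusted threshold in the 3 comparisons. The connexin genes Gja3, Gjb1, Gjb5 and Gjd3 had log2 differences of -0.02 to 0.23 with the mimic and of -0.07 to 0.06 with the inhibitor. Of 9 other cadherins 1 rose with the inhibitor, as did 2 of 8 other genes of the adherens plaque, 2 of 5 nectins and 3 of 18 other tight junction genes, where 11.1% of all genes tested rose. Nothing particular to a role is read from these counts, and 3 of the calls in them (Nectin1, Amotl1 and Pard3) ended in some fits with 1 array left out.

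Fat1, a giant cadherin that acts on actin and growth control, rose most with the inhibitor. Fat1 had log2 values of 5.25, 5.50 and 5.13 with the mimic, 6.37, 6.06 and 6.20 with the inhibitor and 5.38, 5.34 and 5.38 in the control. Each inhibitor array lay above all others, and the mimic overlapped the control. The inhibitor difference was 0.84 ± 0.10 (SE; limma, adjusted p = 0.000489), and the mimic difference was -0.07 ± 0.10 (adjusted p = 0.794), with a turned sign without mimic 3 (0.01).

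Pvr, a nectin-like adhesion receptor that serves in humans as the entry receptor of poliovirus, also rose with the inhibitor. Its log2 values were 6.32, 6.47 and 6.17 with the mimic, 7.15, 7.15 and 7.11 with the inhibitor and 6.35, 6.36 and 6.35 in the control. The inhibitor arrays stood clear of the other 6. The inhibitor difference was 0.79 ± 0.07 (SE; limma, adjusted p = 0.000126). With the mimic it was -0.03 ± 0.07 (adjusted p = 0.887), and 0.04 without mimic 3.

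Vcl, the gene of vinculin, which anchors actin at cadherin junctions and focal adhesions, rose with both RNAs. Vcl had log2 values of 8.36, 8.46 and 8.10 with the mimic, 8.52, 8.29 and 8.35 with the inhibitor and 7.87, 7.85 and 7.92 in the control. All 6 treated arrays lay above the control, and the mimic and inhibitor arrays overlapped. The rise was 0.43 ± 0.09 with the mimic and 0.51 ± 0.09 with the inhibitor (SE; limma, adjusted p = 0.0283 and 0.0045). The mimic call ended in 6 of 9 fits with 1 array left out, namely without control 1, 2 or 3, mimic 1 or 2, or inhibitor 3 (limma, adjusted p of up to 0.117), and also without the level filter (0.0568) and in a fit of 6 arrays (0.0565), while the inhibitor call held in 9 of 9.

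**Figure D3:**
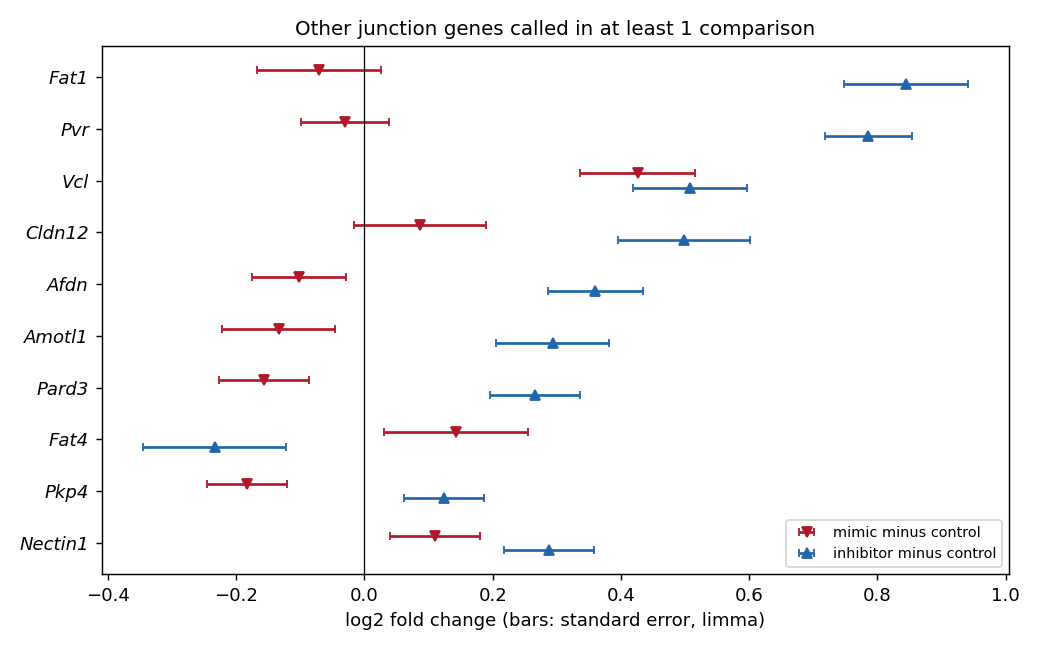
Log2 fold change with the mimic and with the inhibitor against the control arrays for the 10 other junction genes that limma called in at least 1 of the 3 comparisons (bars are standard errors). Fat1 and Pvr lie at 0.84 and 0.79 with the inhibitor and near 0 with the mimic, and Vcl lies above 0 with both.

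The tight junction gene Cldn12 rose by 0.50 with the inhibitor, and Afdn, whose protein afadin ties nectins to actin, rose by 0.36 (limma, adjusted p = 0.00985 and 0.00955). Both calls held in 9 of 9 fits with 1 array left out. The nectin gene Nectin1 rose by 0.29, Amotl1, an angiomotin relative, by 0.29 and the polarity scaffold gene Pard3 by 0.27 (limma, adjusted p = 0.0213, 0.0481 and 0.0293). That of Nectin1 ended without control 1 or 3 or inhibitor 1 or 3, that of Amotl1 without control 1 or 3, mimic 1, or inhibitor 1 or 3, and that of Pard3 without control 1, 2 or 3 or inhibitor 1 or 3 (limma, adjusted p of up to 0.0897, 0.163 and 0.103). The Amotl1 call also ended without the level filter, after quantile normalization, with the replicate number as a block and without both mimic 3 and inhibitor 1 (limma, adjusted p = 0.0873, 0.0509, 0.074 and 0.0511), and the Nectin1 call with arrays centred on their median (0.064). With the mimic the log2 differences of these 5 genes were 0.09, -0.10, 0.11, -0.13 and -0.16, and none passed the threshold.

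Between the mimic and the inhibitor, Fat1, Pvr, Cldn12, Afdn, Amotl1, Pard3 and Pkp4 were lower with the mimic, by -0.92, -0.82, -0.41, -0.46, -0.43, -0.42 and -0.31 on the log2 scale (limma, adjusted p of at most 0.014). The call of Cldn12 ended without inhibitor 1 (limma, adjusted p = 0.0561). Fat4, an atypical cadherin of planar polarity, was higher with the mimic by 0.38 (limma, adjusted p = 0.0305). Its call ended without mimic 1 or 2 or inhibitor 2 or 3 (limma, adjusted p of up to 0.113), and also without the level filter (0.0662) and in a fit of 6 arrays (0.0821). The genes uncalled in the main fit with the highest means were Lima1, Marveld1, Ctnnd1 (p120 catenin), Amotl2 and Jup (gamma-catenin). Some passed the threshold in alternative fits, of which examples follow. Lima1 was higher with the mimic than in the control after quantile normalization and with centred arrays (limma, adjusted p = 0.0385 and 0.0275). Lima1 (limma, adjusted p = 0.0225 and 0.00996), Marveld1 (0.0316 and 0.0153) and Jup (0.0232 and 0.0305) were higher with the mimic than with the inhibitor in the same 2 fits. Amotl2 was higher with the inhibitor than in the control in a fit of 6 arrays (limma, adjusted p = 0.016). This also held without mimic 3 (0.00932) and without both mimic 3 and inhibitor 1 (0.0212). In the main fit the log2 differences of these uncalled genes ran from 0.015 to 0.21 with the mimic and from -0.12 to 0.22 with the inhibitor.

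The course of Gja1 over the 9 arrays was compared with that of the other genes by Pearson's r, as a description. The arrays of a group share a treatment, and mimic 3 and inhibitor 1 lie at the ends of the first principal component. Gja1 itself had an r of 0.96 with the scores on this component. High values were common, with r over 0.9 for 896 genes and a median of 0.13 over all genes tested. The part of the treatments and of this component in them was not tested. Within the set r with Gja1 was 0.95 for Cdh2, 0.93 for Ctnna1, 0.89 for Gjc1, 0.84 for Tjp1, 0.55 for Ctnnb1 and -0.63 for Cdh11 (n = 9 arrays). Of all genes, 2.02% had a higher r than Cdh2 and 13.2% a higher r than Tjp1.

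The genes closest to Gja1 were Nceh1, a cholesterol ester hydrolase gene (r = 0.997), Slc22a23 (0.993), the nucleolar protein genes Lyar (0.993) and Nolc1 (0.992), and Jag1, the gene of a Notch ligand (0.992). Their log2 differences were -0.36 to -0.20 with the mimic and 0.40 to 0.60 with the inhibitor, nearer to 0 than those of Gja1. Nceh1, for example, had log2 values of 4.22, 4.33 and 4.14 with the mimic, 5.03, 4.89 and 4.94 with the inhibitor and 4.37, 4.49 and 4.48 in the control. The most opposed were Selenom (-0.986), Itm2b (-0.982) and Atraid (-0.981), with differences of 0.05 to 0.15 with the mimic and of -0.34 to -0.19 with the inhibitor.

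**Figure D4:**
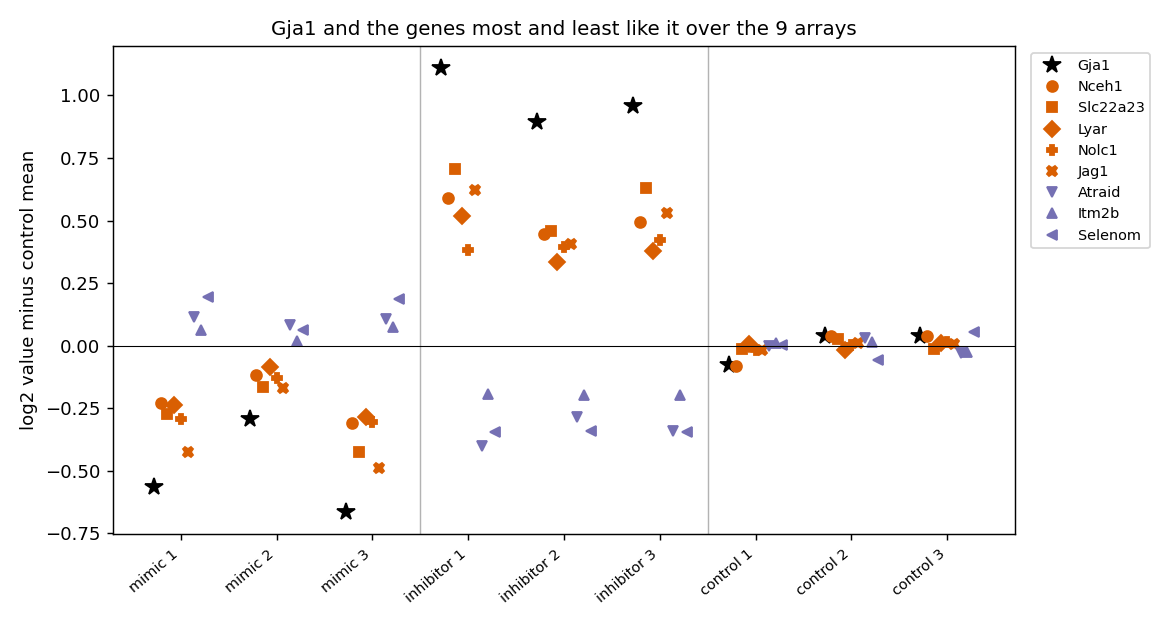
Log2 value minus the control mean on each of the 9 arrays for Gja1 (star), the 5 genes with the highest r to it (orange) and the 3 with the lowest (purple). Gja1 and the orange genes lie below 0 on the mimic arrays and above 0 on the inhibitor arrays, with Gja1 farthest out on each of these 6 arrays, and the purple genes lie on the other side.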

How the data were processed

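RNA from the cells was taken up with the miRNeasy kit and hybridised as biotin-labelled cDNA to Affymetrix whole-transcript arrays, per the labels' protocols. The deposited values, 28853 probe sets on 9 arrays, are on a log2 scale (2.64 to 12.5). Partek 6.5 and RMA (background correction, quantile normalization, median polish) made them, per the submitters' processing notes. The genome build is not given in the sources used. The number of arrays limits the precision.

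Genes were named from the 21789 probe sets annotated to 1 gene (1621 had several, 5443 none), through gene IDs and RefSeq's GRCm38.p6 table, which held 19856 of the IDs. Of several probe sets the brightest stood for a gene. Genes with a mean under the 40th percentile (3.86) were left out. A single limma 3.58.1 model (R 4.3.3, lmFit and eBayes) with 3 group coefficients was fitted, with Benjamini-Hochberg adjustment over the 11963 genes tested and a threshold of 0.05. Calls, standard errors and adjusted p-values come from it unless an alternative fit (a setting changed or arrays left out) is named.

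The members and lists were chosen with earlier results of these data known. Named were all members, the other junction genes called in any comparison (10), the 5 uncalled ones with the highest mean, and the 5 genes most and 3 least like Gja1. Alternatives were other level filters, both scalings, fits of 6 arrays, the replicate block, a variance trend, averaged probe sets and arrays left out.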

Additional observations from a re-analysis of the deposited data

How the results depend on the processing

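The level filters, fits of 6 arrays, replicate block, variance trend and averaged probe sets leave the Gja1 difference as it is by construction. After quantile normalization it was -0.49 with the mimic, 0.89 with the inhibitor and -1.38 between mimic and inhibitor, and with arrays centred on their median -0.48, 0.92 and -1.40. With 1 array left out it ranged from -0.62 to -0.43 with the mimic, from 0.93 to 1.03 with the inhibitor and from -1.60 to -1.42 between mimic and inhibitor. The count of genes called in mimic against control was 425, and 774 after quantile normalization, 652 with arrays centred on their median, 248 in a fit of 6 arrays, 911 without mimic 3 and inhibitor 1, and 133 to 582 with 1 array left out. The count for inhibitor against control ranged from 974 to 2790 with 1 array left out, against 1780. For the other junction genes, the count with the mimic was 1, and 2 after quantile normalization, 2 with centred arrays, 2 without mimic 3 and inhibitor 1, 0 in a fit of 6 arrays, 0 without the level filter, and 0 to 2 with 1 array left out. With the inhibitor it was 8, 10 without mimic 3 and inhibitor 1, and 5 to 9 with 1 array left out. Between mimic and inhibitor it was 8, and 15 with centred arrays. The cause was not tested.

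Signs turned for 7 genes, in comparisons where none of the other junction genes among them was called. Ctnnb1 moved to 0.0090 with the inhibitor after quantile normalization, with a range of -0.0253 to 0.0172 with 1 array left out, and to 0.0070 between mimic and inhibitor with centred arrays. Vcl between mimic and inhibitor moved to 0.0160 with centred arrays and to 0.0861 without mimic 3 and inhibitor 1, with a range of -0.16 to 0.02 with 1 array left out. Ctnnd1 between mimic and inhibitor moved to 0.0119 after quantile normalization and to 0.0680 without mimic 3 and inhibitor 1, with a range of -0.2070 to -0.0011 with 1 array left out. With the mimic, Fat1 moved to 0.0096 and Pvr to 0.0440 without mimic 3 and inhibitor 1. Also with the mimic, ranges with 1 array left out crossed 0 for Fat1 (-0.17 to 0.0096), Pvr (-0.1066 to 0.0440), Ctnnd1 (-0.0834 to 0.1225), Amotl2 (-0.0357 to 0.1056) and Jup (-0.0309 to 0.0854).

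The labels give replicate numbers without saying whether they mark arrays handled together. Same-numbered arrays correlated between -0.59 and 0.22 in their deviations from the group means. Deviations within a group of 3 arrays sum to 0, so these values cannot settle whether the numbers pair the arrays. With the replicate block 289, 1575 and 3028 genes were called in the 3 comparisons.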
